A study of Homo sapiens with 18 samples.

Results

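The 10 genes described here are induced by ERK signalling or feed back on it, and were followed across CRISPR knockdowns in human fibroblast-like cells: the PEA3 group ETS factors ETV1, ETV4 and ETV5, the Sprouty genes SPRY1, SPRY2 and SPRY4, the Sprouty-related genes SPRED1 and SPRED2, and the dual-specificity phosphatase genes DUSP4 and DUSP6. They were chosen by gene family, with their summed estimated counts by group and guide already in view, so their levels and fold changes describe these libraries and test nothing. They are 10 of the 35544 genes with a matched transcript, and all 10 were among the 13519 genes that passed the filter on low counts. ETV1 was the member that stood out. Its mRNA was above all 4 control libraries in 4 of 4 CDKN1A, 4 of 4 KDM1A and 6 of 6 SPP1 knockdown libraries. Taken group by group, this held for 6.46%, 8.2% and 2.97% of all genes tested. The share of genes above control in all 3 groups at once was not counted, and the 3 groups share the same controls.

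The cells were hiF-T, a line derived from BJ skin fibroblasts in which hTERT, the catalytic subunit of telomerase, can be induced. The labels give the genotype as WT in every group and do not say whether hTERT was induced. Control libraries carried a backbone with control guide 1 or 2 (4 libraries). The others carried guides 1 or 2 against CDKN1A (4 libraries), guides 2 or 3 against KDM1A (4 libraries), or guides 1, 2 or 3 against SPP1 (6 libraries), with biological replicates 1 and 2 for each guide. All groups thus share the line, the transgene and a guide. Poly(A) RNA was sequenced. The labels do not say how the guides lower their targets or whether replicates 1 and 2 came from separate cultures. The p-values therefore measure only the spread between these libraries, and the part between replicates may be technical. In comparisons of groups that spread also holds differences between guides of a group.

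In the ERK pathway, activated receptor tyrosine kinases load RAS with GTP, and RAS switches on the kinases RAF, MEK and ERK in turn. ERK then relieves the repressor CIC and activates ETS factors, which raises transcription of ETV1, ETV4 and ETV5, and the same activity induces Sprouty, SPRED and DUSP genes whose proteins dampen the pathway. In fibroblasts the pathway carries growth signals of the FGF, EGF and PDGF families, and transcripts of these genes are widely used as a readout of its output. ERK activity itself was not analysed here.

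The total estimated count of a library was 11907197 to 17016094. Counts were scaled to library size as CPM, with TMM factors for library composition. A gene is called below when edgeR's quasi-likelihood test gave a Benjamini-Hochberg adjusted p under 0.05 over all genes tested, and log2 fold changes are given ± SE. The targeted mRNAs came first. CDKN1A guides 1 and 2 left 46.3% and 70.6% of the control CDKN1A mRNA, and KDM1A guides 2 and 3 left 62.6% and 43.4% of KDM1A mRNA. SPP1 guides 1, 2 and 3 left 39.6%, 79.7% and 66.8% of SPP1 mRNA, which was not called lower over the SPP1 group. Replicate 1 of SPP1 guide 3 (63 CPM) and replicate 2 of guide 2 (55.3 CPM) lay within the control range of 55.2 to 72.7 CPM. Targets also moved outside their own group. In the KDM1A knockdown SPP1 mRNA rose to 2.05 times control (edgeR adjusted p 0.00793), and with CDKN1A guides it stood at 1.81 times, not called but above every control in 4 of 4 libraries. CDKN1A mRNA was below every control in 4 of 4 KDM1A libraries (log2 -0.33, not called) and 5 of 6 SPP1 libraries (-0.32, not called). What part these shifts have in the members' values was not tested. Fibroblast markers COL1A1, COL1A2, COL6A1, VIM, PDGFRB and FN1 were expressed, with a summed list level of 27600 to 34600 CPM, while THY1 averaged under 1 CPM. The keratinocyte, melanocyte, and endothelial and leukocyte lists each summed to at most 2.89 CPM in any library. In bulk RNA, fewer cells that express a gene and less of its RNA per cell cannot be told apart.

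RefSeq windows around annotated start sites (GRCh38.p14, 250 bases before to 50 from the start) matched 7 of the 10 members with 16 windows. ETV4, ETV5 and DUSP4 had no window, so their promoters were not searched. Both strands were searched for the ETS core CCGGAA, the CIC octamers TGAATGAA and TGAATGGA, the AP-1 site TGACTCA and the CRE TGACGTCA. In the members no match of one motif overlapped that of another. Of all 35116 distinct windows, 17.2% held the ETS core, 2.63% a CIC octamer, 4.95% the AP-1 site and 1.85% the CRE. Among the members' windows, 5 held the ETS core (in ETV1, where windows overlap, SPRY1 and SPRY2), 1 a CIC octamer (ETV1), 1 the AP-1 site (SPRED2) and 0 the CRE. Windows of ETV1 and SPRY2 are shown because these genes carried calls against control, as did DUSP4, which had no window. The first window shown is that of a member with a CIC octamer. Matches are in capitals, each sequence runs 5′ to 3′ on the minus strand, and a match is a string of letters, not a shown binding site.
ETV1 chr7:13991376-13991675: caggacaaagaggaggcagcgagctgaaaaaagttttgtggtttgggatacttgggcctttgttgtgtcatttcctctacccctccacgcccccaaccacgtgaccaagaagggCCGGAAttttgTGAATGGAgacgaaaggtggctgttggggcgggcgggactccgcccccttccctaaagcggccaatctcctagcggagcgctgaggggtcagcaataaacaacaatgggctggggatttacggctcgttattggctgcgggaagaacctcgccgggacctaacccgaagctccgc
ETV1 chr7:13989617-13989916: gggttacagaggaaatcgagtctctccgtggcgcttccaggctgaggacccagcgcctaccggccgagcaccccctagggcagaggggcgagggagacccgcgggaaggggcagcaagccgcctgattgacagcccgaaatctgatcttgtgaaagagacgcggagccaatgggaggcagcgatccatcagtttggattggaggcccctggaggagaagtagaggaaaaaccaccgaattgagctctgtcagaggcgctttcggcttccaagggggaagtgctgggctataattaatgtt
SPRY2 chr13:80341077-80341376: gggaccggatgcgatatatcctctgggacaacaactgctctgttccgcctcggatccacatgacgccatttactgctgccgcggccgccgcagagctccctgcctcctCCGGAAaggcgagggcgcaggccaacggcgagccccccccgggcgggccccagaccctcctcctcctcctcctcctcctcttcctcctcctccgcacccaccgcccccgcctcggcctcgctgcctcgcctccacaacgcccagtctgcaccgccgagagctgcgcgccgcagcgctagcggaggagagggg
In the first ETV1 window, CCGGAA begins 136 bases and TGAATGGA 125 bases before the start. Transcripts starting within 300 bases of that start held 3.2% of ETV1 counts. The second ETV1 window held none of the motifs, and transcripts starting within 300 bases of its start held 59.5% of ETV1 counts. In SPRY2, CCGGAA begins 142 bases before the start, and transcripts starting within 300 bases of it held 92.9% of SPRY2 counts.

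Levels of different genes were compared per transcript length, as TPM (scaled for length and depth) summed over transcripts. In control cells SPRY2 was highest at 41.8 ± 3.69 TPM (SD, n = 4), followed by ETV5 (38.7 ± 4.17) and SPRED1 (36.8 ± 4.14), whose control ranges overlap. DUSP6 (28.6 ± 1.85 TPM) and SPRY4 (27.6 ± 2.51) came next and also overlap. SPRED2 (19.2 ± 1.76 TPM), ETV4 (14.8 ± 1.38), DUSP4 (10.7 ± 0.819) and ETV1 (7.64 ± 1.62) followed, each range apart from the next. SPRY1 was lowest at 0.471 ± 0.241 TPM, on 1 to 19 counts per library in the whole series. For ETV5, DUSP4, SPRY2, SPRED1 and SPRED2 a single transcript held 92.3 to 98.8% of the gene's counts summed over libraries. ETV1 was spread over several: its leading transcript, ETV1-207, held between 0.0% and 52.4% of ETV1 counts in a library, and ETV1-205 between 9.2% and 58.3%.

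**Figure D1:**
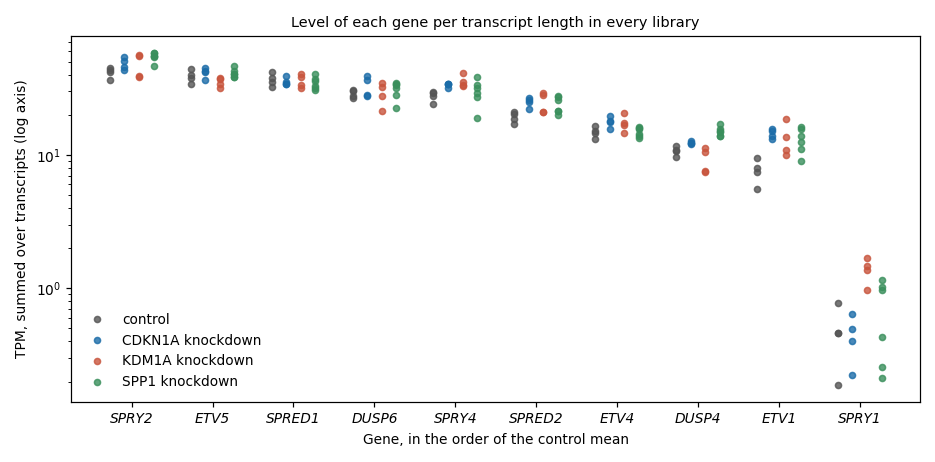
Level of each gene per transcript length, in TPM on a log axis, with 1 point for each library coloured by group; genes stand in the order of the control mean. SPRY2 is highest in control at 41.8 TPM and SPRY1 lowest at 0.471 TPM.

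ETV1, a transcription factor of the PEA3 group (ENSG00000006468, chromosome 7, 13891228 to 13991425, minus strand, GRCh38), measured 11.9 and 15.1 CPM in the replicates of control guide 1 and 14.1 and 15.3 CPM in those of guide 2. With CDKN1A guide 1 it measured 24.5 and 25.4 CPM, and with guide 2, 21.7 and 22.2 CPM. With KDM1A guide 2 it measured 17.1 and 16 CPM, and with guide 3, 31.2 and 28.4 CPM. Every knockdown library was thus above the controls, with the KDM1A guide 2 libraries nearest to them. In the SPP1 group it measured 18.1 and 20 CPM with guide 1, 30.3 and 23.5 CPM with guide 2, and 26 and 27.2 CPM with guide 3. The model gave log2 fold changes against control of 0.73 ± 0.19 for CDKN1A, 0.72 ± 0.19 for KDM1A and 0.77 ± 0.18 for SPP1, or 1.66, 1.64 and 1.71 times control. These 3 comparisons share the same 4 control libraries. ETV1 was called higher in each, in the CDKN1A knockdown only just. With both libraries of a guide summed, ETV1 was called in none of the 3 (log2 0.74, 0.72 and 0.78).

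The other PEA3 factors moved less. ETV4 (ENSG00000175832, chromosome 17, 43527844 to 43579620, minus strand) measured 14.5 to 17.8 CPM in control and 17.8 to 19.3 CPM in the CDKN1A knockdown. Its log2 fold change was 0.22 ± 0.08 for CDKN1A, 0.14 ± 0.08 for KDM1A and -0.03 ± 0.07 for SPP1, none of them called. The span of ETV4 overlaps that of DHX8 on the opposite strand (median 29.9 TPM). Spans include introns, and whether transcripts of the 2 genes share sequence was not checked. Whether the counting used strand is not given either, so any effect on ETV4 values is unknown. ETV5 (ENSG00000244405, chromosome 3, 186046308 to 186110318, minus strand) measured 67.5, 70.9, 65 and 68.7 CPM in the control libraries. It measured 81.7, 73.4, 78 and 80.7 CPM with CDKN1A guides, all above control, and 57.5 and 59.4 CPM with KDM1A guide 2, both below control. With KDM1A guide 3 it was above control again, at 73.2 and 73.4 CPM. ETV5 was not called against control (log2 0.21 ± 0.07 for CDKN1A, -0.05 ± 0.07 for KDM1A and 0.11 ± 0.07 for SPP1). Its span overlaps that of DGKG on the same strand (median 7.12 TPM), and shared transcript sequence was not checked here either.

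**Figure D2:**
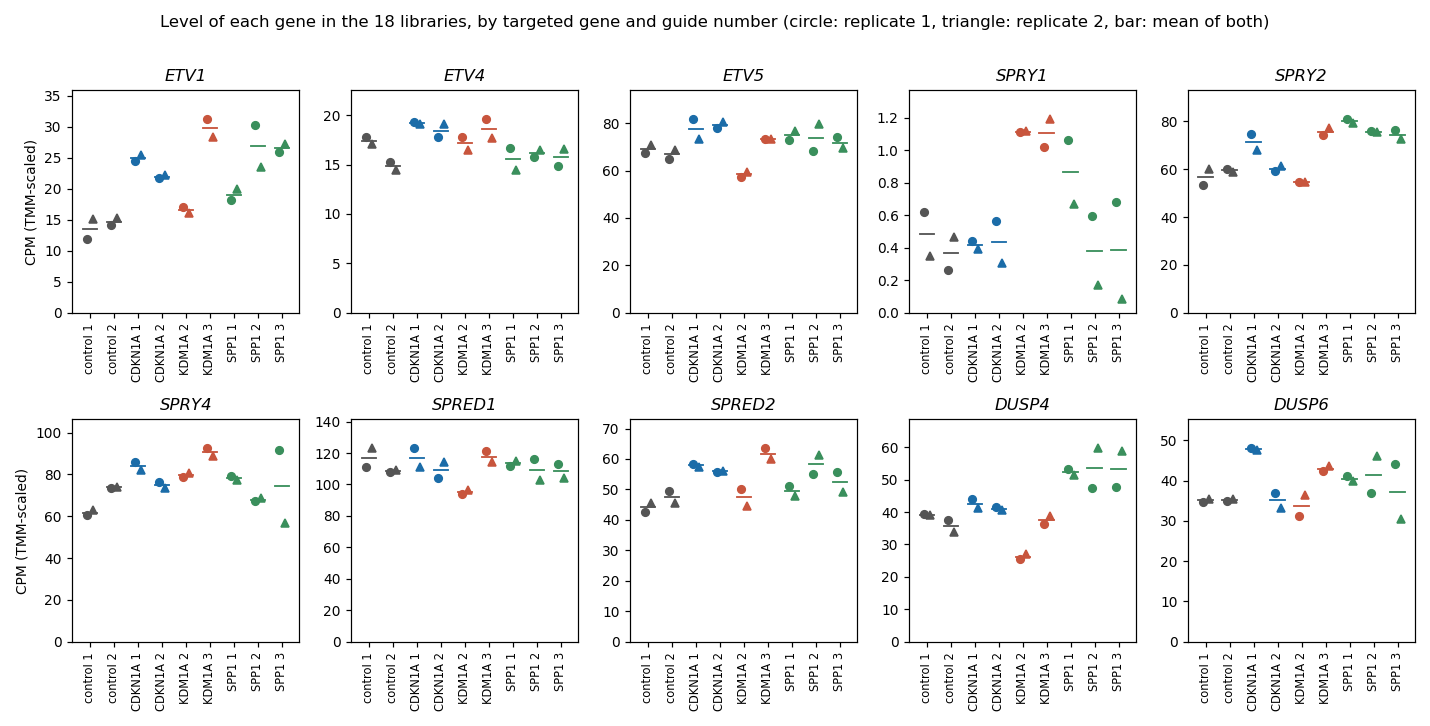
TMM-scaled CPM of each gene in all 18 libraries, by targeted gene and guide number; circles are replicate 1, triangles replicate 2 and bars the mean of both, and each panel has its own axis from 0. ETV1 is above its 11.9 to 15.3 CPM control range in every knockdown library, and DUSP4 splits between KDM1A guide 2 (25.4 and 27.1 CPM) and the SPP1 guides (47.6 to 59.7 CPM).

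Sprouty proteins inhibit signalling between receptor and RAF. SPRY2 (ENSG00000136158, chromosome 13, 80335976 to 80340951, minus strand) measured 53.6, 60.2, 60.1 and 58.9 CPM in control libraries. In the SPP1 group it measured 80.9 and 79.5 CPM with guide 1, 76 and 75.4 CPM with guide 2, and 76.3 and 72.7 CPM with guide 3, with no overlap. It was called higher there, 1.32 times control (log2 0.40 ± 0.09). With CDKN1A guide 1 it measured 74.9 and 68.1 CPM but with guide 2 only 59.1 and 61.3 CPM, and with KDM1A guide 2, 54.6 and 54.8 CPM against 74.3 and 77.3 CPM with guide 3. In both of these groups 1 guide lay near control and the other above it, and neither group was called (log2 0.18 ± 0.10 for CDKN1A and 0.17 ± 0.10 for KDM1A).

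SPRY4 (ENSG00000187678, chromosome 5, 142310427 to 142326455, minus strand) differed between the control guides, at 60.6 and 62.9 CPM with guide 1 and 73.5 and 74.2 CPM with guide 2. All 4 KDM1A libraries lay above these (79, 80.7, 92.5 and 88.6 CPM; log2 0.33 ± 0.11, not called). The replicates of SPP1 guide 3 measured 91.5 and 57 CPM, the highest and the lowest of the SPP1 group. In these libraries SPP1 mRNA was at 63 and 21.7 CPM and DUSP6 at 44.1 and 30.4 CPM. DUSP4 (47.8 and 58.8 CPM), ETV1 (26 and 27.2 CPM) and ETV4 (14.9 and 16.6 CPM) went the other way, and the remaining members were lower in replicate 2. What part SPP1 mRNA has in the SPRY4 difference was not tested. SPRY4 was not called in the CDKN1A (log2 0.23 ± 0.11) or SPP1 knockdown (0.12 ± 0.10). SPRY1 (ENSG00000164056, chromosome 4, 123396795 to 123403760, plus strand) had 9, 5, 4 and 6 counts in the control libraries and 14, 18, 14 and 19 in the KDM1A libraries. All 4 KDM1A libraries lay above control, at 1.02 to 1.19 against 0.264 to 0.622 CPM, but the log2 fold change of 1.38 ± 0.44 was not called.

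SPRED proteins hold RAS inactive together with neurofibromin. SPRED2 (ENSG00000198369, chromosome 2, 65310851 to 65432637, minus strand) measured 42.6, 45.6, 49.4 and 45.6 CPM in control and 58.5, 57.3, 55.7 and 56.1 CPM in the CDKN1A knockdown, with no overlap. With KDM1A guide 3 it measured 63.5 and 60 CPM, while with guide 2 it was at 50.3 and 44.4 CPM, close to control. Its log2 fold changes of 0.31 ± 0.09 for CDKN1A, 0.25 ± 0.09 for KDM1A and 0.22 ± 0.09 for SPP1 were not called. SPRED1 (ENSG00000166068, chromosome 15, 38252326 to 38357249, plus strand) was the flattest member, at 113 ± 7.02 CPM in control, 113 ± 8 in the CDKN1A (both SD, n = 4) and 111 ± 5.73 in the SPP1 knockdown (n = 6). With KDM1A guide 2 it measured 93.8 and 96.6 CPM, below the control range of 108 to 123 CPM. Its log2 fold changes against control were 0.00 ± 0.08, -0.09 ± 0.08 and -0.03 ± 0.07 for CDKN1A, KDM1A and SPP1, and none was called.

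DUSP4 and DUSP6 dephosphorylate ERK, DUSP4 in the nucleus and DUSP6 in the cytoplasm. DUSP4 (ENSG00000120875, chromosome 8, 29333064 to 29350668, minus strand) measured 39.3, 39, 37.6 and 33.8 CPM in control. In the SPP1 group it measured 53.3 and 51.6 CPM with guide 1, 47.6 and 59.7 CPM with guide 2, and 47.8 and 58.8 CPM with guide 3, all above control. It was called higher, 1.42 times control (log2 0.50 ± 0.10). In the KDM1A knockdown it measured 25.4 and 27.1 CPM with guide 2, below every control, and 36.4 and 38.8 CPM with guide 3, within the control range (log2 -0.23 ± 0.11, not called). The 4 CDKN1A libraries lay a little above control at 40.5 to 43.9 CPM (log2 0.16 ± 0.11, not called).

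DUSP6 (ENSG00000139318, chromosome 12, 89347232 to 89353271, minus strand) had the tightest controls, at 34.6, 35.5, 34.9 and 35.3 CPM. With CDKN1A guide 1 it measured 48 and 47.5 CPM, but with guide 2 only 36.8 and 33.3 CPM. With KDM1A guide 3 it measured 42.4 and 43.5 CPM and with guide 2, 31.2 and 36.3 CPM. One guide of each of these targets thus lay above control and the other around it. With SPP1 guide 1 DUSP6 measured 41.1 and 39.8 CPM, with guide 2, 36.9 and 46.1 CPM, and with guide 3, 44.1 and 30.4 CPM. Of these 6 libraries 5 lay above every control and 1 below. DUSP6 was not called in any knockdown (log2 0.24 ± 0.13, 0.13 ± 0.13 and 0.18 ± 0.12 for CDKN1A, KDM1A and SPP1).

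In the CDKN1A knockdown, of the inhibitor p21 that arrests the cell cycle, 1 of the 10 members was called, ETV1, beside 2% of all genes tested. All 10 log2 fold changes were at or above 0, from 0.00 to 0.73, with a median of 0.21 (all genes 0.00). In 5 members, ETV1, ETV4, ETV5, SPRED2 and DUSP4, every CDKN1A library was above every control library, as for 6.46% of all genes. The ETV1 call was lost without either control guide or either CDKN1A guide (log2 0.64 to 0.83), and without any single control or CDKN1A library (0.66 to 0.78), replicate 2 of SPP1 guides 1 and 2, or replicate 1 of SPP1 guide 3 (0.73 to 0.74).

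In the knockdown of KDM1A, the histone demethylase LSD1, 1 member was called, ETV1, beside 9.06% of all genes. The members' median log2 fold change was 0.16 (all genes -0.01), with 7 values above 0 and 3 below. In 3 members, ETV1, SPRY1 and SPRY4, every library was above every control library, as for 8.2% of all genes. The ETV1 value rested on guide 3: without it the log2 fold change was 0.24 and not called. The call was also lost without control guide 1 (log2 0.66) or control guide 2 (0.79), and without replicate 1 of control guide 1 (0.65) or either replicate of KDM1A guide 3 (0.55 and 0.61).

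In the knockdown of SPP1, the secreted phosphoprotein osteopontin, 3 members were called, all higher (ETV1, SPRY2 and DUSP4), beside 5.46% of all genes. The members' median log2 fold change was 0.20 (all genes 0.00). In the same 3 members every SPP1 library was above every control library, as for 2.97% of all genes. Without control guide 1 all 3 calls were lost, with log2 fold changes of 0.71, 0.37 and 0.57. Without control guide 2, SPRY2 alone was called, with ETV1 at 0.84 and DUSP4 at 0.45; the ETV1 call was also lost without SPP1 guide 2 (0.69) or 3 (0.70) or either replicate of control guide 1 (0.69 and 0.81), and that of SPRY2 without replicate 1 of control guide 1 (0.36). SPRY2 (0.41) and DUSP4 (0.50) also lost their calls with both libraries of a guide summed.

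**Figure D3:**
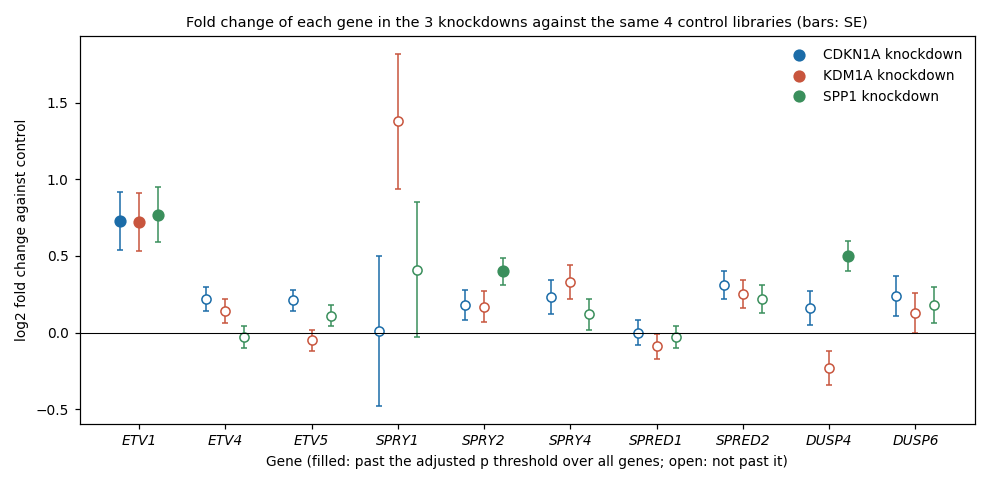
Log2 fold change of each gene in the 3 knockdowns against the same 4 control libraries, with SE as bars; filled points passed the adjusted p threshold over all genes tested. ETV1 lies at 0.72 to 0.77 in all 3, while DUSP4 ranges from -0.23 (KDM1A) to 0.50 (SPP1).

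The knockdowns were also compared with each other, which leaves the control libraries out of the difference. Between CDKN1A and KDM1A knockdown 3 members were called beside 15% of all genes. ETV5 (log2 0.25 ± 0.07) and DUSP4 (0.38 ± 0.11) were higher with CDKN1A guides and SPRY1 (-1.37 ± 0.43) lower. ETV5 averaged 58.4 CPM with KDM1A guide 2 but 73.3 CPM with guide 3, against 77.6 and 79.4 CPM with CDKN1A guides 1 and 2. DUSP4 averaged 26.3 and 37.6 CPM with these KDM1A guides, against 42.6 and 41 CPM with the CDKN1A guides. With an offset for transcript length ETV5 was not called (0.20). The ETV5 call was lost without replicate 1 of CDKN1A guide 1 or any single library of CDKN1A guide 2 or KDM1A guide 2 (0.19 to 0.25), that of DUSP4 without replicate 1 of CDKN1A guide 1 or either of KDM1A guide 2 (0.29 to 0.36), and that of SPRY1 without any single library of either group (-1.52 to -1.25). Between CDKN1A and SPP1 knockdown 2 members were called beside 12.1% of all genes, ETV4 higher (0.25 ± 0.07) and DUSP4 lower (-0.35 ± 0.10). The ETV4 call was lost without either library of CDKN1A guide 1 or replicate 2 of guide 2 (0.24 to 0.25), and that of DUSP4 without replicate 2 of CDKN1A guide 1, either library of guide 2 or replicate 2 of SPP1 guide 2 (-0.34 to -0.31). Between KDM1A and SPP1 knockdown 1 member was called beside 11.9% of all genes: DUSP4 was lower with KDM1A guides (-0.73 ± 0.10), and this call held when any single library was left out. For ETV1 the differences between knockdowns were -0.05 to 0.02 with SEs of 0.17 to 0.18, which leaves room for differences of moderate size.

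Guides against 1 target differed in the members, most of all for KDM1A. With guide 3, whose libraries had the lower KDM1A mRNA (50.7 and 52 CPM against 73.2 and 75 CPM with guide 2), 6 of 10 members were called higher than with guide 2 and 0 lower, beside 6.17% of all genes called in either direction. These were ETV1 (log2 0.85 ± 0.12), DUSP4 (0.52 ± 0.11), SPRY2 (0.47 ± 0.07), SPRED2 (0.39 ± 0.08), ETV5 (0.33 ± 0.08) and SPRED1 (0.30 ± 0.08). Their median over all 10 members was 0.33, against 0.00 over all genes. The part that the KDM1A level has in these differences was not tested. Leaving out any 1 of the 4 libraries left 2 or 3 calls: ETV1 and SPRY2 were called each time, DUSP4 without replicate 1 of guide 3, SPRED2 without replicate 1 of guide 2 or replicate 2 of guide 3, and ETV5 and SPRED1 never. An offset for transcript length left 3 calls, without ETV1 (0.61), ETV5 (0.16) and SPRED1 (0.24).

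Among the other targets the guides differed less. SPP1 guide 1 gave 1 call against guides 2 and 3, beside 3.93% of all genes: ETV1 was lower (log2 -0.49 ± 0.11) with the guide that left the least SPP1 mRNA on average. This call was lost without either library of SPP1 guide 1 (-0.42 and -0.56) or replicate 1 of SPP1 guide 2 (-0.39). Control guide 2 against guide 1 gave 0 called members by edgeR and by DESeq2, with 1 at an unadjusted p under 0.05, beside 1.35% of all genes called. CDKN1A guide 2 against guide 1 gave 0 by both tools, with 2 at an unadjusted p under 0.05, beside 1.28% of all genes called. The log2 difference of CDKN1A guide 2 from guide 1 was -0.44 ± 0.13 for DUSP6 and -0.25 ± 0.06 for SPRY2, neither of them called.

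Set against the 4 controls, each guide had a different number of members with both libraries above every control. CDKN1A guide 1 had 8 (12.9% of all genes) and guide 2 had 5 (14%). KDM1A guide 3 had 7 (15.2%) and guide 2 had 3 (17.6%), and KDM1A guide 2 also had 3 members with both libraries below every control, ETV5, SPRED1 and DUSP4 (17.2%). SPP1 guides 1, 2 and 3 had 7 (12.1%), 5 (14.6%) and 3 (11.7%). ETV1 was above in each of these guides, from log2 0.23 with KDM1A guide 2 to 1.08 with KDM1A guide 3. The members' median log2 fold change ran from 0.00 with KDM1A guide 2 to 0.34 with KDM1A guide 3.

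**Figure D4:**
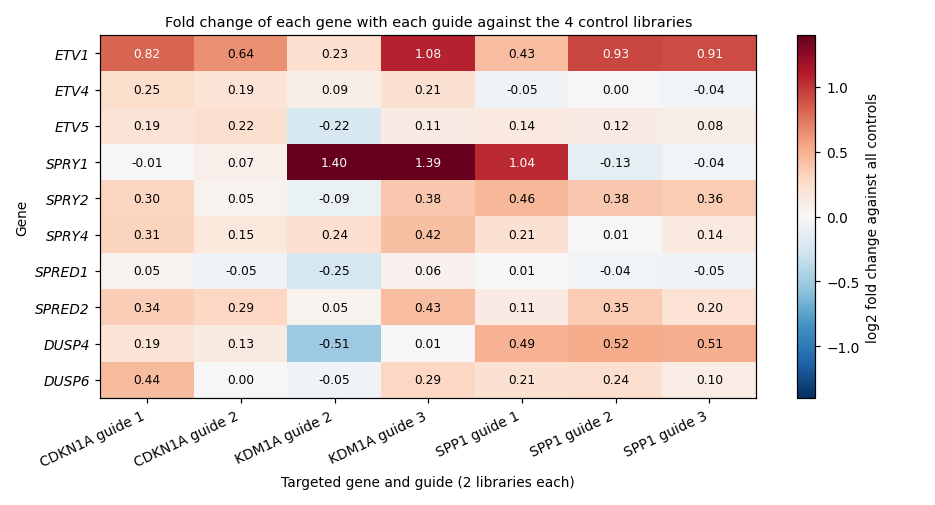
Log2 fold change of each gene (rows) with each guide (columns, 2 libraries each) against the 4 control libraries; red is higher and blue lower, and the number in each cell is the value. KDM1A guide 2 has the lowest values for ETV1 (0.23), ETV5 (-0.22), SPRY2 (-0.09), SPRED1 (-0.25), SPRED2 (0.05) and DUSP4 (-0.51) of all guides.

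Across the 18 libraries the log2 CPM of the members were mostly positively related: 36 of 45 pairs had a Pearson r above 0, from -0.52 to 0.83 with a median of 0.33. After subtracting group means the median was 0.46, and the closest pair was SPRY2 with SPRED1 (0.82, against 0.47 before). Without that subtraction the closest pairs were ETV1 with SPRED2 (r 0.83), SPRY2 with DUSP4 (0.74) and ETV1 with SPRY2 (0.72). The points share libraries, guides and depth, so these values are descriptions. The median r among pairs of other genes was not computed, so whether the members differ from other genes in this was not tested. Outside the members, the genes most like DUSP6 were DAB2 (r 0.812), NFKBIZ (0.797), PLCB1 (0.795), ADD1 (0.788) and IGF2BP2 (0.77). Those most like ETV5 were RASSF8 (0.903), MFHAS1 (0.878), C11orf95 (0.856), CXCL3 (0.851) and IGF2BP2 (0.847).

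Call counts in this and the following gene lists stand beside 2%, 9.06% and 5.46% of all genes called for CDKN1A, KDM1A and SPP1. Of 16 further genes listed as ERK targets from general knowledge 14 were tested, and whether each responds to ERK in these cells was not. In the SPP1 knockdown 1 of them rose and 4 fell, with a median log2 fold change of -0.21 (all genes 0.00). PHLDA1, a pleckstrin homology domain protein, rose from 162 ± 3.21 (SD, n = 4) to 227 ± 17 CPM (n = 6; log2 0.49 ± 0.09, edgeR adjusted p 0.00719). The zinc finger factor KLF2 fell from 115 ± 4.61 to 73.9 ± 4.9 CPM (log2 -0.64 ± 0.08, adjusted p 0.00059) and the immediate early factor EGR1 from 91.6 ± 12.6 to 60.7 ± 10.5 CPM (-0.59 ± 0.14, adjusted p 0.021). FOS, the AP-1 subunit, was called lower too (-1.01 ± 0.28, adjusted p 0.0397), though 0 of 6 SPP1 libraries lay below every control. JUNB, the fourth to fall, was called only just (-0.43 ± 0.13), with 2 of 6 SPP1 libraries below every control. Its call in other settings is not given here. In the KDM1A knockdown 2 rose, PHLDA1 (0.40 ± 0.10, adjusted p 0.018) and the cytokine LIF (1.07 ± 0.27, adjusted p 0.0147), and 2 fell, the ephrin receptor EPHA4 (-0.68 ± 0.13, adjusted p 0.00215) and FOS (-1.67 ± 0.32, adjusted p 0.00241); the median was -0.07. With CDKN1A guides none rose and 2 fell, FOS (-1.52 ± 0.32, adjusted p 0.0209) and KLF2 (-0.38 ± 0.09, adjusted p 0.0354); the median was -0.05. The FOS calls rested on control guide 1: control FOS was 20.3 ± 13.2 CPM, and without that guide the log2 fold changes were -0.33, -0.48 and 0.18 for CDKN1A, KDM1A and SPP1, not called. Without it EGR1 (-0.46) and LIF (0.79) were not called either, nor was PHLDA1, whose log2 fold changes of 0.50 for SPP1 and 0.41 for KDM1A were no smaller. The KDM1A call of PHLDA1 was also lost without control guide 2 (0.40) or KDM1A guide 3 (0.13), and the CDKN1A call of KLF2 without any single control or CDKN1A library (-0.41 to -0.34). EPHA4 was not called with an offset for transcript length (-0.38). With both libraries of a guide summed, which leaves 1 value per guide, EPHA4, EREG and EPGN in the KDM1A knockdown kept their calls; every other call given with an adjusted p here and in the paragraphs on the other gene lists was lost, those of KLF2 and AREG included.

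Of 10 other MAP kinase phosphatase, Sprouty and SPRED genes 8 were tested. In the SPP1 knockdown DUSP5, a nuclear ERK phosphatase, rose from 56.1 ± 4.27 to 86.1 ± 6.14 CPM (log2 0.62 ± 0.12, adjusted p 0.00719), and DUSP10, which acts on JNK and p38, rose as well (0.38 ± 0.10, adjusted p 0.0335). DUSP7, a cytoplasmic ERK phosphatase, fell (-0.26 ± 0.07, adjusted p 0.0321). The list's median log2 fold change was 0.04. In the KDM1A knockdown SPRED3 was the 1 gene called, rising from 25.2 ± 0.704 to 34.2 ± 2.4 CPM (0.44 ± 0.09, adjusted p 0.00235; list median 0.06). For CDKN1A edgeR called 0 and DESeq2 1, with 1 at an unadjusted p under 0.05 (list median 0.01). Without control guide 1 the DUSP5 (0.53), DUSP7 (-0.20), DUSP10 (0.36) and SPRED3 (0.41) calls were lost, and those of DUSP7 (-0.27 to -0.22) and DUSP10 (0.35 to 0.39) also without any of several single libraries of control or SPP1 guides 2 and 3.

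Among 14 tested growth factor ligands, 3 of the EGF family rose in the KDM1A knockdown, while EGF (log2 -0.26), HBEGF (-0.04) and NRG1 (0.34) of that family were not called. EREG, which encodes epiregulin, went from 31.8 ± 1.97 to 91.5 ± 8.64 CPM (log2 1.52 ± 0.13, adjusted p 6.08e-07), EPGN (epigen) from 3.03 ± 1.36 to 14.4 ± 1.3 CPM (2.26 ± 0.22, adjusted p 2.39e-06), and AREG (amphiregulin) from 3.61 ± 0.446 to 7.07 ± 0.939 CPM (0.97 ± 0.17, adjusted p 0.00115). PDGFA (-0.68 ± 0.15, adjusted p 0.00603) and FGF2 fell, so 3 ligands rose and 2 fell, with a median of 0.08. In the SPP1 knockdown EPGN (1.41 ± 0.21, adjusted p 0.0024) and EREG (0.43 ± 0.12, adjusted p 0.0485) rose, and FGF2 (-0.51 ± 0.11, adjusted p 0.0124) and PDGFA (-0.48 ± 0.13, adjusted p 0.0427) fell, with a median of -0.07. EPGN was the 1 ligand called in the CDKN1A knockdown (0.95 ± 0.23, adjusted p 0.0412; median 0.12). EREG and EPGN in the KDM1A knockdown passed in 30 of 30 alternative analyses each. Without control guide 1 the CDKN1A call of EPGN (0.51), the KDM1A call of PDGFA (-0.44) and all 4 SPP1 calls (EPGN 0.96, EREG 0.36, FGF2 -0.36 and PDGFA -0.24) were lost. The SPP1 call of EREG was lost in 23 of 31 alternatives and that of PDGFA in 13 of 31, and the CDKN1A call of EPGN in 14 of 30.

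Calls among the receptors and the kinase cascade stand beside 9.06% of all genes in the KDM1A and 5.46% in the SPP1 knockdown. Of 16 tested receptors and adaptors, the PDGF receptor PDGFRB rose (log2 0.51 ± 0.15, adjusted p 0.0333) and ERBB2 fell (-0.44 ± 0.13, adjusted p 0.0385) in the KDM1A knockdown (median -0.01), and FGFR3 fell in the SPP1 knockdown (-1.19 ± 0.26, adjusted p 0.0127; median 0.02), where DESeq2 gave -1.21 and no adjusted p. For CDKN1A both tools called 0, with 4 at an unadjusted p under 0.05 (median 0.00). Of 16 genes of the RAS, RAF, MEK and ERK core, RPS6KA3 (-0.30 ± 0.08, adjusted p 0.0151) and RPS6KA1 (-1.01 ± 0.28, adjusted p 0.0288), which encode ERK-activated RSK kinases, fell in the KDM1A knockdown. In the CDKN1A and SPP1 knockdowns both tools called 0 core genes, with 2 and 1 at an unadjusted p under 0.05. The core's median log2 fold change was -0.01 in each knockdown. Without KDM1A guide 2 ERBB2 (-0.19), PDGFRB (0.26), RPS6KA3 (-0.17) and RPS6KA1 (-0.88) were not called, nor was FGFR3 without replicate 1 of control guide 1 (-0.99). Without control guide 1 FGFR3 (-0.95), ERBB2 (-0.54), RPS6KA3 (-0.20) and RPS6KA1 (-0.75) lost their calls. With an offset for transcript length FGFR3 (-0.69), ERBB2 (-0.23), PDGFRB (0.54), RPS6KA3 (-0.28) and RPS6KA1 (-0.72) were not called. FGFR3 was also low, at 1.14 ± 0.303 CPM in control (SD, n = 4) and 0.502 ± 0.136 CPM in the SPP1 knockdown (n = 6).

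Of 10 other ETS, CIC and SRF factors 4 fell in the SPP1 knockdown, where ETV1 was called higher. ETS1 went from 217 ± 6.71 to 166 ± 15 CPM (log2 -0.39 ± 0.07, adjusted p 0.00621), ETV6, a repressor of the ETS family, from 27.5 ± 3.18 to 21.2 ± 2.57 CPM (-0.37 ± 0.09, adjusted p 0.0192), ETS2 from 74.7 ± 3.7 to 62.4 ± 5.74 CPM (-0.26 ± 0.06, adjusted p 0.0202) and ELK3 from 252 ± 6.08 to 224 ± 9.56 CPM (-0.17 ± 0.04, adjusted p 0.031). The list's median was -0.11. In the KDM1A knockdown ETV6 (-0.43 ± 0.10, adjusted p 0.00732) and ELK3 (-0.22 ± 0.05, adjusted p 0.00744) fell, with a median of -0.16. CDKN1A guides gave 0 calls by edgeR and 1 by DESeq2, with 1 at an unadjusted p under 0.05 (median 0.05). Without control guide 1 none of the 6 calls was kept. The log2 fold changes were then -0.36 (ETS1), -0.25 (ETV6), -0.23 (ETS2) and -0.15 (ELK3) in the SPP1 knockdown and -0.31 (ETV6) and -0.20 (ELK3) in the KDM1A knockdown. With an offset for transcript length only ETS1 kept its call. The others were then at -0.27 (ETV6), -0.15 (ETS2) and -0.16 (ELK3) in the SPP1 knockdown and -0.36 (ETV6) and -0.22 (ELK3) in the KDM1A knockdown.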

How the data were processed

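Poly(A) RNA-seq of 18 hiF-T libraries was used. Per the submitters' processing notes the tool was kallisto and the build GRCh38 (hg38), with no version or settings given in the sources used here. The authors deposited estimated counts, TPM and effective lengths for each transcript, made with that tool. Counts were summed by Ensembl identifier with GENCODE 29, which matched 169754 of 188753 transcripts (89.9%); the rest, with 2.51 to 2.63% of a library's counts, stayed out. Rounded counts of 13519 genes (filterByExpr, minimum 10) were fitted with edgeR 4.0.16 in R 4.3.3, with TMM scaling and 1 coefficient per group; guides were compared with 1 coefficient per guide. Log2 CPM used a prior count of 2. The code was tested on simulated data. DESeq2 1.42.0 and other settings were alternatives. In the data, replicate numbers did not pair libraries across guides (36 pairs of guides, r -0.12 to 0.07). Members and lists were chosen with earlier results of these data known. Named genes are the members, the targets, up to 4 called genes of smallest p per list and knockdown, and the 5 genes most correlated with DUSP6 and with ETV5; JUNB and FGF2 in the KDM1A knockdown complete a count and were named after their values were seen.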

Additional observations from a re-analysis of the deposited data

Results flagged for a closer look

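In the CDKN1A knockdown, ETV4 measured 17.8 CPM in replicate 1 of guide 2, apart from the other 3 libraries at 19.1 to 19.3 CPM by Dixon's test. Of 40 groups of libraries checked this was the 1 that stood out, and chance flags about 1 in 20. Between KDM1A guides 3 and 2 the log2 difference of ETV1 was 0.85, of DUSP4 0.52, of SPRY2 0.47, of SPRED2 0.39, of ETV5 0.33 and of SPRED1 0.30, each called. SPP1 guide 1 differed from guides 2 and 3 in ETV1 (-0.49). CDKN1A and KDM1A knockdown differed in ETV5 (0.25), SPRY1 (-1.37) and DUSP4 (0.38). CDKN1A and SPP1 knockdown differed in ETV4 (0.25) and DUSP4 (-0.35), and KDM1A and SPP1 knockdown in DUSP4 (-0.73).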

How the results depend on the processing

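The count of members called against control moved with the model. For CDKN1A, KDM1A and SPP1 (1, 1 and 3 members called) it was 2, 3 and 3 with DESeq2, and 0 in each with both libraries of a guide summed or without control guide 1. It was 3 for CDKN1A and 3 for KDM1A with only the 2 groups compared, 4 and 6 with 1 coefficient per guide, and 2 for KDM1A with no filter on low counts. Without control guide 2 it was 0 for CDKN1A and 1 for SPP1, without either CDKN1A guide 0, and without KDM1A guide 2 it was 3. With the replicate block it was 0 for CDKN1A (ETV1 at log2 0.73, not called) and 2 for KDM1A, and the block changed no other count by over 1.5 times. Leaving out 1 library in turn gave 0 to 2 for CDKN1A, 0 to 3 for KDM1A and 1 to 3 for SPP1. It gave 0 to 3 for CDKN1A against KDM1A, 0 to 2 for CDKN1A against SPP1, 1 to 2 for KDM1A against SPP1, 0 to 1 for the control guides and for the CDKN1A guides, 2 to 8 for the KDM1A guides and 0 to 3 for SPP1 guide 1 against guides 2 and 3. With no filter the count was 1 for CDKN1A against SPP1 and 1 between the CDKN1A guides. With a transcript length offset it was 0 for CDKN1A against SPP1, 3 between the KDM1A guides and 0 between the SPP1 guides. Over these alternatives 1 to 1171, 162 to 2232 and 1 to 1760 genes were called for CDKN1A, KDM1A and SPP1, against 271, 1225 and 738. FOS in the SPP1 knockdown changed sign without control guide 1 (log2 0.18). The ETV1 call was lost in 17 of 30 alternatives for CDKN1A, 7 of 30 for KDM1A and 7 of 31 for SPP1, each with its direction kept. The cause of these losses was not tested. Settings that leave libraries out also have fewer libraries, and what part that has in the losses was not tested either. Alternatives between knockdowns, between guides and for the lists were added after seeing the data. SPRY1 rests on 1 to 19 counts per library.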
